A study of Mus musculus with 10 samples.

Results

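Otx2, Fgf5, Pou3f1, Sox1, Sox3, Zic2, Zic5, Nes and Pax6 are genes that mark mouse pluripotent cells on their way from the naive state through the formative epiblast to the neural plate. These 9 genes were listed by name, out of 19385 genes that had a named site in the deposited tables. The study compared RNA from mouse embryonic stem cells (ESC) with normal or altered DIDO3, a protein isoform of the Dido1 gene. The 9 libraries fell into 3 groups of 3, and all cells were C57BL/6. WT cells carried the wild type genotype. DIDO3ΔE16 cells, labelled DIDO3_exon16 mutant, lacked the DIDO3-specific exon 16, which was floxed in mice and removed with a Sox2-Cre transgene before the cells were derived. DIDO3ΔCT+HADIDO3 cells, labelled DIDO3_dCT+HADIDO3 mutant, carried a constitutive deletion of the DIDO3 C-terminus, which affects the same exon, and were reconstituted with HA-tagged DIDO3. No sample of the C-terminal deletion without HADIDO3 was deposited, so the deletion and the added protein cannot be told apart. The cells grew in serum with LIF on mouse embryonic fibroblasts treated with mitomycin C or on gelatin, and the labels do not say which surface each sample had, nor from how many clones the libraries came. The labels list 4 WT samples, but replicates 2 and 3 share 1 library, called WT 2-3 here.

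Naive pluripotent cells resemble the inner cell mass, and formative cells resemble the epiblast soon after implantation, when it becomes able to answer signals for the germ layers and the germline. OTX2 and the POU factor encoded by Pou3f1 help to move cells into that state, Fgf5 is its classical marker, and ZIC factors take over at many of the same regulatory elements. Where Nodal, BMP and WNT signals are low, cells of this stage take on neural fate, with SOX1, SOX3 and PAX6 as transcription factors and nestin as a filament protein of neural progenitors.

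The values are TPM, transcript abundance scaled to the same total in each library, which the authors computed over the annotated 3′ end of each gene plus 2 kb beyond it, so reads within the gene's end and reads past it are added together. Features with the same start, end and strand were summed into 1 site, and each gene is described by its most abundant site. The 9 genes had 13 sites. A site was tested in a comparison when its TPM was above 0 in all 6 libraries, and it counted as called when the log2 fold change reached 0.7 in either direction and the adjusted p was under 0.05 (limma on log2 TPM, Benjamini-Hochberg over all tested sites). These p-values measure the spread between these libraries, which may be technical. Because 0.1 was added before the logarithm, fold changes of genes with low TPM are understated. In bulk RNA, fewer cells of a type and less RNA per cell cannot be told apart.

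TPM of a site could be uneven within a group where several features share the same span or where features share bases. Among sites with a mean of at least 5 TPM, 18 of 6760 sites (0.266%) made of 1 feature that shared no base with another differed by 4-fold or more between libraries of 1 group. The same held for 918 of 2138 sites (42.9%) of 1 feature that did share bases, and for 1716 of 5108 sites (33.6%) made of several features. This was seen after the values were known. Pou3f1, Sox1, Sox3, Zic2 and Zic5 lie at sites of 1 feature that shares no base. Otx2 has 4 features of the same span, and Fgf5 and Nes share bases with another site of the same gene. The 4 Otx2 features together were even within each group, although DIDO3ΔCT+HADIDO3 3 was split into 7.01, 4.68, 4.46 and 4.25 TPM while 1 feature held almost all TPM in the other 8 libraries.

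**Figure D1:**
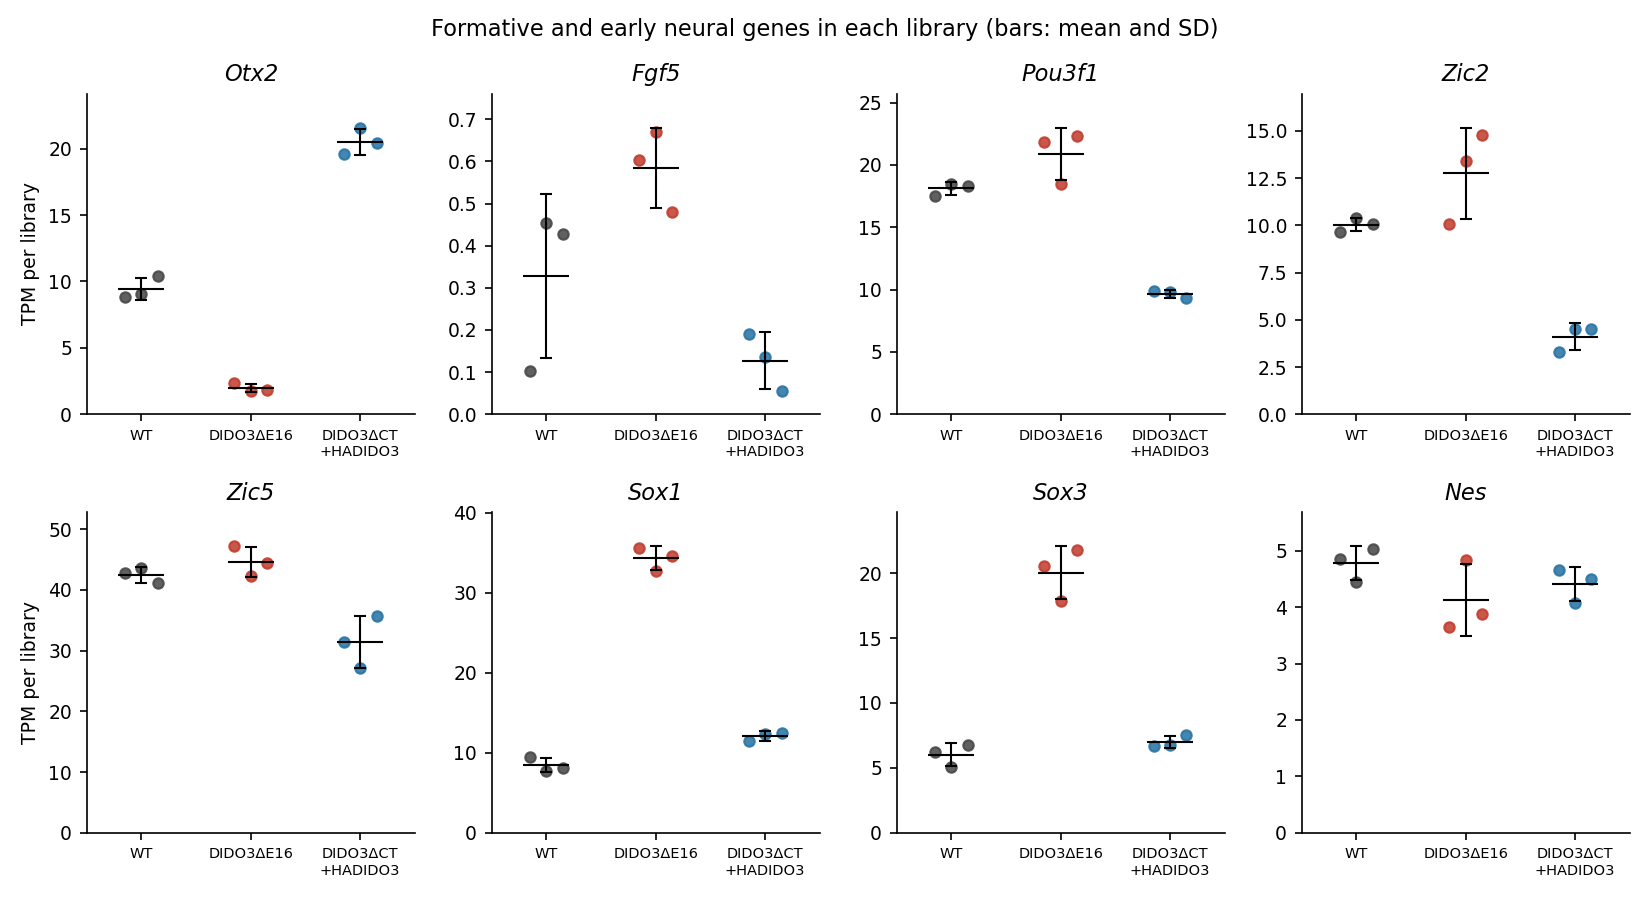
TPM of 8 genes in each library (vertical axis, starting at 0) for the 3 groups; each point is 1 library and the bars give the mean and the standard deviation. Otx2 lies between 1.78 and 2.36 TPM in DIDO3ΔE16 and between 19.6 and 21.6 TPM in DIDO3ΔCT+HADIDO3, with WT in between, and Sox1 and Sox3 are highest in the 3 DIDO3ΔE16 libraries.

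Otx2 encodes a homeodomain factor of the formative epiblast and later of the anterior neural plate. Its TPM were 8.83, 9.04 and 10.4 in WT 1, 2-3 and 4, were 2.36, 1.78 and 1.85 in the DIDO3ΔE16 libraries, and were 19.6, 21.6 and 20.4 in the DIDO3ΔCT+HADIDO3 libraries. The 3 groups did not overlap, with DIDO3ΔE16 lowest and DIDO3ΔCT+HADIDO3 highest. In DIDO3ΔE16, Otx2 had a log2 fold change of -2.25 against WT (SE 0.156, limma adjusted p 0.000725), which is 4.75-fold lower. In DIDO3ΔCT+HADIDO3 it was 2.02-fold higher than in WT, a log2 fold change of 1.01 (SE 0.0920, limma adjusted p 0.00119). Between the mutants directly, DIDO3ΔE16 minus DIDO3ΔCT+HADIDO3, the log2 difference was -3.29 (SE 0.134, limma adjusted p 6.13e-05).

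Pou3f1 encodes a POU factor, also known as OCT6, that acts with OTX2 in formative cells and promotes neural fate. Its TPM were 17.5, 18.5 and 18.3 in WT, 21.8, 18.5 and 22.4 in DIDO3ΔE16, and 9.91, 9.79 and 9.29 in DIDO3ΔCT+HADIDO3. The DIDO3ΔCT+HADIDO3 libraries were the lowest by a wide gap, and DIDO3ΔE16 2 lay just above the highest WT library. The log2 fold change was -1.002 in DIDO3ΔCT+HADIDO3 (SE 0.0678, limma adjusted p 0.000531), 2.00-fold lower than in WT. In DIDO3ΔE16 it was 0.14 (SE 0.0919, limma adjusted p 0.317) and was not called. The mutants differed from each other by 1.119 on the log2 scale (SE 0.0976, limma adjusted p 0.000551).

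Fgf5 encodes the FGF ligand used to mark formative and primed epiblast, and it was near the floor of these libraries. Its TPM were 0.103, 0.454 and 0.428 in WT, 0.603, 0.669 and 0.481 in DIDO3ΔE16, and 0.190, 0.136 and 0.0560 in DIDO3ΔCT+HADIDO3. The mutant groups did not overlap, and WT 1 lay among the DIDO3ΔCT+HADIDO3 libraries while WT 2-3 and WT 4 lay close below DIDO3ΔE16. Mean coverage of the site was between 0.0437 and 0.383 reads per base. Neither mutant was called against WT, with log2 fold changes of 0.75 (SE 0.464, limma adjusted p 0.282) in DIDO3ΔE16 and -0.88 (SE 0.513, limma adjusted p 0.239) in DIDO3ΔCT+HADIDO3. Both values depended on WT 1. Without it they were 0.27 (limma adjusted p 0.471) and -1.37 (limma adjusted p 0.0527), and neither was called. DIDO3ΔE16 exceeded DIDO3ΔCT+HADIDO3 by 1.63 (SE 0.312, limma adjusted p 0.00883), a call that rests on values under 1 TPM and that was lost with 1 in place of 0.1 added before the logarithm (log2 difference 0.49). The other Fgf5 site reached 0.147 TPM in WT 4 and was at 0 in the other 8 libraries.

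Zic2 and Zic5 encode zinc finger factors and stand head to head on chromosome 14, Zic5 on the minus strand (site 122457160 to 122459332) and Zic2 on the plus strand (122479244 to 122482328). Zic2, whose product binds enhancers of the formative state and is needed for forebrain development, had 9.67, 10.4 and 10.05 TPM in WT, 10.1, 13.4 and 14.8 TPM in DIDO3ΔE16, and 3.31, 4.50 and 4.54 TPM in DIDO3ΔCT+HADIDO3. All 3 DIDO3ΔCT+HADIDO3 libraries lay below every other library, while DIDO3ΔE16 1 fell within the WT range. Zic2 had a log2 fold change of -1.38 in DIDO3ΔCT+HADIDO3, 2.60-fold lower than WT (SE 0.137, limma adjusted p 0.00154). In DIDO3ΔE16 the log2 fold change was 0.26 (SE 0.149, limma adjusted p 0.242), and between the mutants the log2 difference was 1.62 (SE 0.190, limma adjusted p 0.00151).

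Zic5 was the most abundant of the 9 genes in each group, with 42.8, 43.6 and 41.1 TPM in WT, 47.2, 42.2 and 44.4 TPM in DIDO3ΔE16, and 31.5, 27.1 and 35.7 TPM in DIDO3ΔCT+HADIDO3. The DIDO3ΔCT+HADIDO3 libraries were again the lowest 3, and the other groups overlapped. The log2 fold change of -0.55 in DIDO3ΔCT+HADIDO3 (SE 0.0994, limma adjusted p 0.0105) passed the p threshold and missed the fold threshold. In DIDO3ΔE16 it was 0.01 (SE 0.0580, limma adjusted p 0.956), a value whose sign changed with the processing. The ratio of Zic5 to Zic2 TPM was 4.43, 4.20 and 4.09 in WT, 4.68, 3.15 and 3.01 in DIDO3ΔE16, and 9.52, 6.03 and 7.86 in DIDO3ΔCT+HADIDO3. Thus the ratio was highest in the 3 libraries in which both genes were lowest.

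Sox1 encodes the SOXB1 factor that is among the earliest markers of neural fate. It had 9.43, 7.77 and 8.10 TPM in WT, 35.6, 32.7 and 34.6 TPM in DIDO3ΔE16, and 11.4, 12.4 and 12.4 TPM in DIDO3ΔCT+HADIDO3. The 3 groups did not overlap, and the gap between DIDO3ΔE16 and the other 6 libraries was many times the spread within a group. Sox1 was 3.87-fold higher in DIDO3ΔE16 than in WT, a log2 fold change of 1.95 (SE 0.0863, limma adjusted p 0.000246). A log2 fold change of 0.42 in DIDO3ΔCT+HADIDO3 (SE 0.0876, limma adjusted p 0.0168) missed the fold threshold. The mutants differed by 1.52 (SE 0.0589, limma adjusted p 5.44e-05).

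Sox3 encodes another SOXB1 factor, on the X chromosome, which is active in epiblast and neural progenitors. Its TPM were 6.22, 5.06 and 6.77 in WT, 20.5, 17.8 and 21.8 in DIDO3ΔE16, and 6.67, 6.76 and 7.50 in DIDO3ΔCT+HADIDO3. DIDO3ΔE16 was again apart from the other 6 libraries, while WT and DIDO3ΔCT+HADIDO3 overlapped. Sox3 was 3.16-fold higher in DIDO3ΔE16 than in WT, a log2 fold change of 1.66 (SE 0.143, limma adjusted p 0.00124). In DIDO3ΔCT+HADIDO3 it was 0.12 (SE 0.131, limma adjusted p 0.534), and this value changed sign without WT 2-3. DIDO3ΔE16 exceeded DIDO3ΔCT+HADIDO3 by 1.53 (SE 0.0965, limma adjusted p 0.000201).

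Nes encodes nestin. It had 4.85, 4.44 and 5.04 TPM in WT, 3.65, 4.85 and 3.88 TPM in DIDO3ΔE16, and 4.66, 4.07 and 4.51 TPM in DIDO3ΔCT+HADIDO3. The 3 groups overlapped. The log2 fold changes were -0.28 in DIDO3ΔE16 (SE 0.139, limma adjusted p 0.192) and -0.21 in DIDO3ΔCT+HADIDO3 (SE 0.104, limma adjusted p 0.171), and -0.08 between the mutants (SE 0.139, limma adjusted p 0.650). Another Nes site held 0.873 to 1.78 TPM, and a site that ends just short of the main one was at 0 in all 9 libraries.

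Pax6, which encodes a paired-box and homeodomain factor of eye and neural progenitors, was listed at 0 TPM in all 9 libraries at both of its sites, which hold 11 features, and it was not tested. All 4055 bases of the longer site lie opposite an Elp4 feature on the other strand, which had 7.01 to 12.1 TPM. The sequencing is described as stranded, but the authors' command line gave no strand option, so the deposited values may not separate Pax6 from Elp4 in this stretch, and a value of 0 there does not show that Pax6 was silent. Across the tables, 460 of 4797 sites (9.59%) that overlap a feature of the opposite strand were at 0 in all libraries, beside 2067 of 23909 other sites (8.65%).

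**Figure D2:**
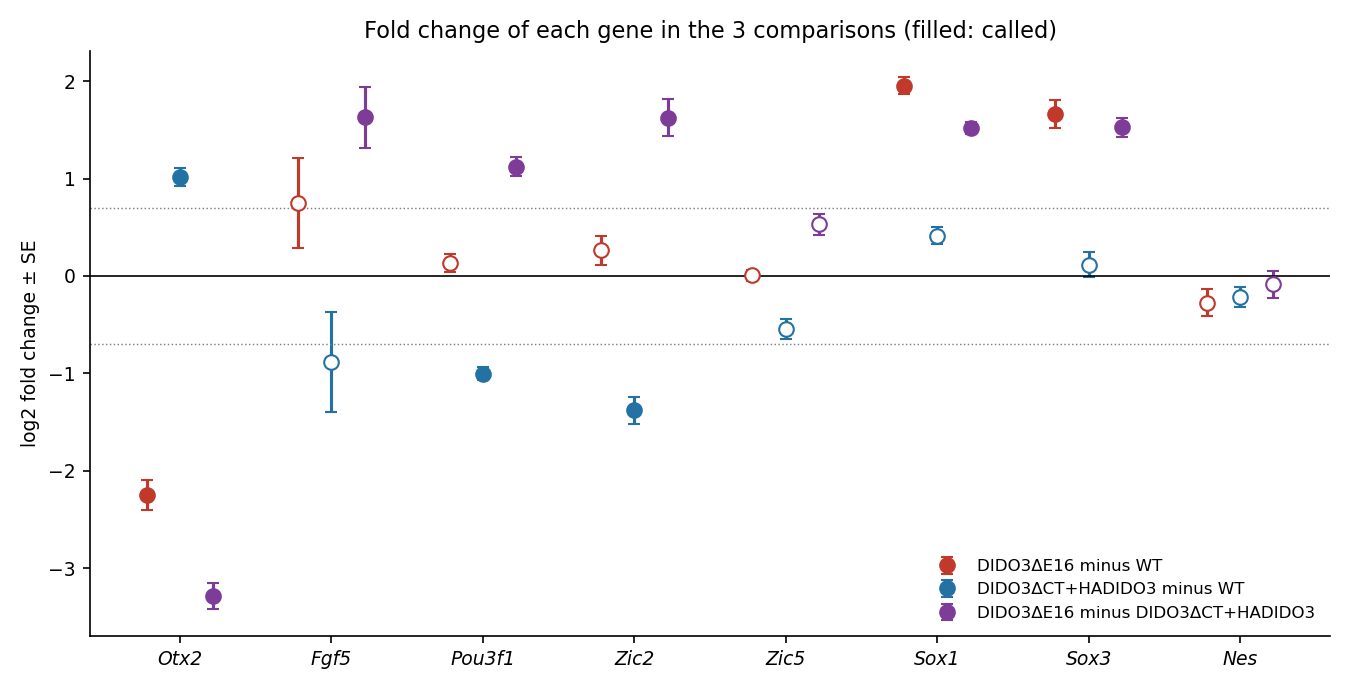
Log2 fold change with its standard error (vertical axis) of 8 genes in the 3 comparisons; filled points were called and dotted lines mark 0.7 in each direction. Otx2 points down in DIDO3ΔE16 (-2.25) and up in DIDO3ΔCT+HADIDO3 (1.01), and Sox1 and Sox3 are called in DIDO3ΔE16 and not in DIDO3ΔCT+HADIDO3.

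In DIDO3ΔE16 against WT, 3 of the 9 genes were called, beside 3191 of 21063 tested sites (15.1%). Of these 3, 2 were higher (10.2% of sites were called higher) and 1 was lower (4.94% of sites). In DIDO3ΔCT+HADIDO3 against WT, 3 of the 9 genes were called, beside 3612 of 20879 sites (17.3%), 1 of them higher (10.1% of sites) and 2 lower (7.24% of sites). Both comparisons use the same WT libraries. Between the mutants, 6 of the 9 genes were called, beside 5791 of 21172 sites (27.4%), with 5 higher in DIDO3ΔE16 (13.9% of sites) and 1 lower (13.4% of sites). In TPM before scaling, the groups did not overlap for 5 genes in DIDO3ΔE16 against WT (49.4% of sites). The same held for 5 genes in DIDO3ΔCT+HADIDO3 against WT (53.5% of sites) and for 7 genes between the mutants (61.6% of sites). Pou3f1 was among the 5 in DIDO3ΔE16 by a small margin, with 18.504 TPM in DIDO3ΔE16 2 and 18.475 TPM in WT 2-3. In each comparison 8 of the 9 genes passed the filter. Their median absolute log2 fold change was 0.51 in DIDO3ΔE16, 0.71 in DIDO3ΔCT+HADIDO3 and 1.52 between the mutants, beside 0.37, 0.40 and 0.52 over all tested sites. The share of sites called higher depended on the scaling in DIDO3ΔE16, where 2151 of 3191 calls were higher, but 1632 of 3128 after quantile normalization.

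Flow cells were shared unevenly. Per the sample descriptions, WT 1 and WT 4 ran on flow cells whose names begin with C7A9, while WT 2-3 and both mutant groups ran on flow cells whose names begin with C79M. Within the latter family a single WT library is left, and the fit assumes that it varies like the others. There the log2 fold changes in DIDO3ΔE16 were -2.20 for Otx2, 2.06 for Sox1 and 1.89 for Sox3. In DIDO3ΔCT+HADIDO3 they were 1.07 for Otx2, -1.43 for Zic2 and -1.03 for Pou3f1. With 1 WT library in this family, these values give size and direction only. Their directions were those of the 6 calls of the 9 genes against WT.

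Ordered by mean TPM, WT ran Zic5 (42.5), Pou3f1 (18.1), Zic2 (10.03), Otx2 (9.42), Sox1 (8.43), Sox3 (6.02), Nes (4.78), Fgf5 (0.328) and Pax6 (0). The libraries of Zic2 and Otx2 overlapped, as did those of Otx2 and Sox1, so those neighbours did not differ beyond their spread. In DIDO3ΔE16 Sox1 came second with 34.3 TPM and Sox3 rose in rank to stand close below Pou3f1 (20.05 and 20.9 TPM), which it overlapped, and Otx2 stood between Nes and Fgf5 with 1.997 TPM. In DIDO3ΔCT+HADIDO3 Otx2 came second with 20.5 TPM and Zic2, with 4.11 TPM, stood just under Nes with 4.41 TPM, whose libraries it overlapped. The ratio of Sox1 to Otx2 TPM was 1.07, 0.859 and 0.780 in WT, 15.1, 18.4 and 18.7 in DIDO3ΔE16, and 0.584, 0.574 and 0.610 in DIDO3ΔCT+HADIDO3. The ratio of Sox1 to Sox3, in contrast, lay between 1.20 and 1.84 in all 9 libraries.

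Patterns over the 9 libraries were compared by the root mean square distance between centred log2 values, in which 0 means the same pattern. Among the 7 genes with a mean of at least 1 TPM, Sox1 and Sox3 were closest (0.178), followed by Pou3f1 with Zic5 (0.281), Zic5 with Nes (0.299) and Pou3f1 with Zic2 (0.3001). Otx2 was farthest from Sox1 (2.14) and least far from Nes (1.33). Over 14542 candidate sites of other genes, those closest to Sox1 were Aebp2 (0.103) and Slc4a8 (0.107), beside a median distance of 0.927. Those closest to Otx2 were Syne1 (0.211) and Map3k20 (0.212), beside a median of 1.41. The closest to Sox3 were Ephb2 (0.142) and Ap5b1 (0.156), to Pou3f1 Mme (0.0644) and Gsto1 (0.0769), and to Zic2 Mycl (0.136) and Gon4l (0.153). Zic5 was closest to Nmd3 (0.0673) and Dpysl5 (0.0694), and Nes to Pelo (0.0819) and Arhgef3 (0.0821), genes that varied little.

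Promoter windows from RefSeq (build GRCm38.p6, 250 bases before to 50 bases after the start) were found for 6 of the 9 genes, 4 windows for Otx2, 2 for Pax6 and 1 each for Fgf5, Sox1, Zic5 and Nes; Pou3f1, Sox3 and Zic2 had no entry. Both strands were searched for the octamer of POU factors (ATGCAAAT), a SOX motif (AACAAT) and an OTX motif (TAATCC), none of which lies within another. Of 32851 promoters, 570 (1.74%) held the octamer, 3521 (10.7%) the SOX motif and 2320 (7.06%) the OTX motif. Among the windows of the 9 genes, 1 Otx2 window held the OTX motif, read as GGATTA on the gene's strand, at -211 to -206 from the start, and the Sox1 window held the octamer at 19 to 26 after it. These windows are shown because Otx2 and Sox1 moved farthest apart in DIDO3ΔE16, with the motif in capitals, Otx2 as chr14:48665110-48665359 on the minus strand and Sox1 as chr8:12395269-12395544 on the plus strand. A match describes letters in a window and not a binding site.
Otx2: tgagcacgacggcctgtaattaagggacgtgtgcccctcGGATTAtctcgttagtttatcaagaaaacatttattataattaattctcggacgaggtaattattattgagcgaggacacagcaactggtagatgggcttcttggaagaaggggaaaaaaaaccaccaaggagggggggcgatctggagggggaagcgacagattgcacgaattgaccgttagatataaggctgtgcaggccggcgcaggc
Sox1: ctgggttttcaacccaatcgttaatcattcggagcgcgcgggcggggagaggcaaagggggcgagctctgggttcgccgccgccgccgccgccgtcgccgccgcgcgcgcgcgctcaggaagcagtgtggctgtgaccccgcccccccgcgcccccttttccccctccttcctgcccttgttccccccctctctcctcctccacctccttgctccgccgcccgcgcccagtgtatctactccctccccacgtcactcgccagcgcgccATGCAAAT

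**Figure D3:**
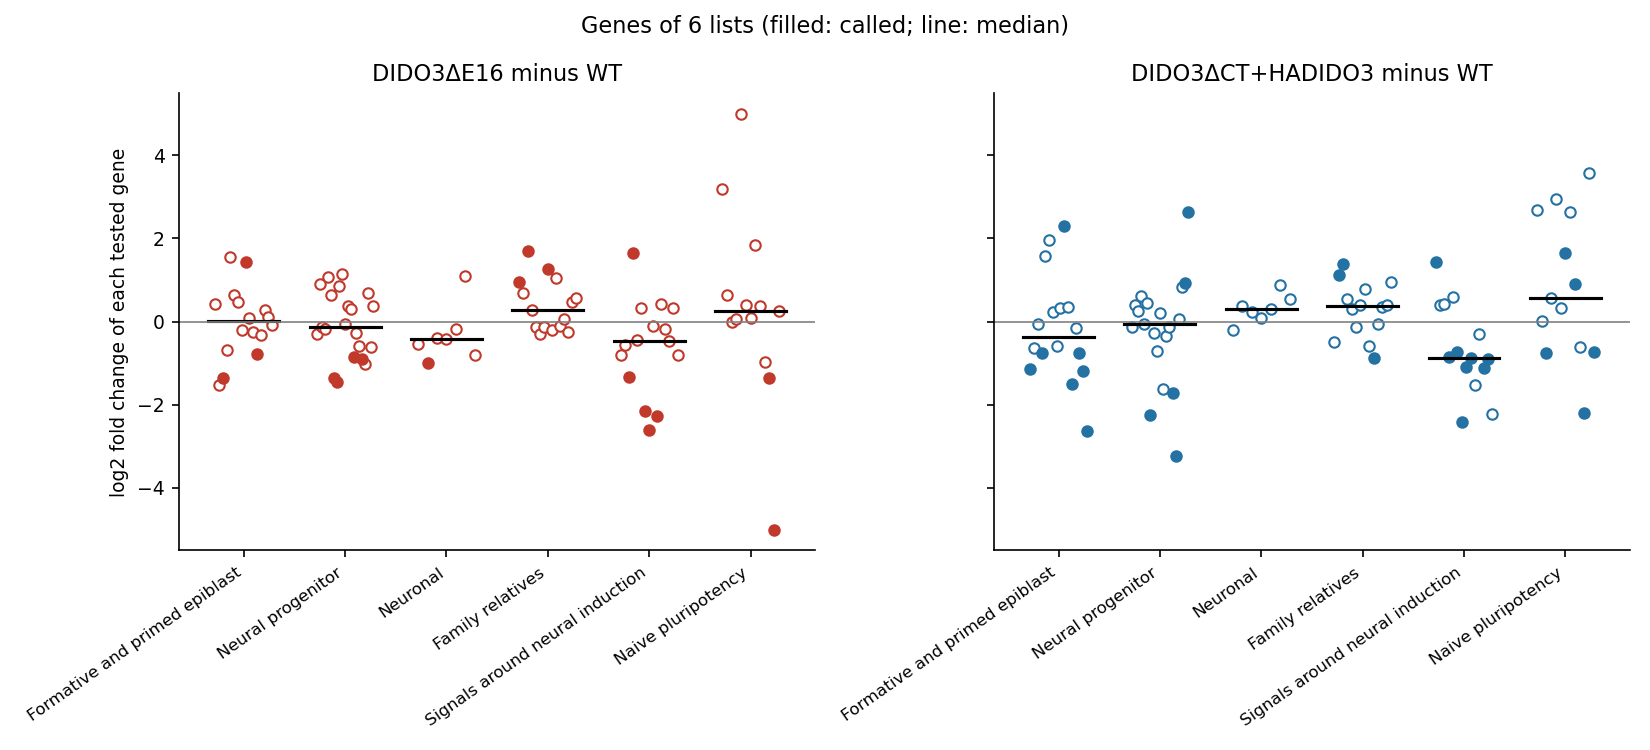
Log2 fold change against WT (vertical axis) of each tested gene of 6 lists (horizontal axis) in DIDO3ΔE16 and in DIDO3ΔCT+HADIDO3; filled points were called and the line is the median of the list. The medians lie between -0.46 and 0.27 in DIDO3ΔE16, and the signalling list is lowest in DIDO3ΔCT+HADIDO3 (-0.87).

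Over all tested sites, 15.1% were called in DIDO3ΔE16 and 17.3% in DIDO3ΔCT+HADIDO3, shares to set beside the counts of each list below. Other genes of the formative and primed epiblast numbered 16, and all were tested. In DIDO3ΔE16, 1 was called higher and 2 lower, with a median log2 fold change of 0.00, beside -0.01 over all sites. The higher gene was Foxd3, a forkhead factor, with 10.9, 12.7 and 12.0 TPM in WT and 33.2, 32.2 and 35.2 TPM in DIDO3ΔE16 (log2 fold change 1.43). All 3 DIDO3ΔE16 libraries of Foxd3 lay far above every WT library. The lower genes were Sox11 (-0.78) and Lef1 (-1.37), and the call of Lef1 was lost without WT 4 (-1.28, limma adjusted p 0.0515). In DIDO3ΔCT+HADIDO3, 1 was higher and 6 were lower, with a median of -0.37, beside -0.01 over all sites. The higher gene was Tead2 (2.31), and the lower ones were Dnmt3a (-1.13), Tcf7l1 (-1.19), Sox11 (-1.50), Tcf15 (-0.76), Cdh2 (-0.75) and Grhl2 (-2.64). Leaving out 1 library ended 3 of these calls: Tcf15 without WT 2-3 (-0.698), Grhl2 without DIDO3ΔCT+HADIDO3 2 (limma adjusted p 0.0508), and Cdh2 without WT 1 (-0.695), DIDO3ΔCT+HADIDO3 1 (limma adjusted p 0.0502) or DIDO3ΔCT+HADIDO3 2 (-0.64). Dnmt3b, Etv4 and Etv5 had a single library far from the rest of its group (Dnmt3b 13.9 TPM in DIDO3ΔE16 2, Etv4 9.32 and Etv5 19.3 TPM in WT 4), at sites of several features. So did Grhl2, with 155 TPM in WT 1 beside 50.4 and 46.7 TPM in WT 2-3 and 4 and 133 TPM in DIDO3ΔE16 1 beside 51.7 and 49.997 TPM, and its log2 fold change of -2.64 includes WT 1.

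Among 26 other genes of neural progenitors, 21 were tested in DIDO3ΔE16, with 0 called higher and 4 lower (beside 10.2% and 4.94% of all sites). Their median log2 fold change was -0.12, and 8 had an unadjusted limma p under 0.05, beside 9131 of 21063 sites. Msi1, which encodes an RNA-binding protein of progenitors, had 93.2, 93.2 and 104 TPM in WT and 56.1, 55.7 and 56.9 TPM in DIDO3ΔE16 (log2 fold change -0.84). Olig2, a bHLH factor, had 86.1, 96.0 and 86.0 TPM in WT and 44.3, 48.2 and 57.8 TPM in DIDO3ΔE16 (-0.90). For both genes the DIDO3ΔE16 libraries lay below every WT library. Hesx1 (-1.46) and Rax (-1.37) were the other lower genes, each below 3 TPM, and the call of Rax was lost without WT 1 (limma adjusted p 0.0537) or WT 2-3 (limma adjusted p 0.0555), while that of Hesx1 was lost in 1 fit of all 9 libraries. Lhx2 (1.07, limma adjusted p 0.0522) and Emx2 (1.15, limma adjusted p 0.145) had positive values, Dll1 (-1.02, limma adjusted p 0.0666), Meis1 (-0.61, limma adjusted p 0.248) and Neurog1 (-0.59, limma adjusted p 0.171) had negative ones, and none of these was called. Of the 21 tested genes, 9 had positive and 12 negative log2 fold changes. Neurog2 (0, 0.169 and 0 TPM in WT, 0.474, 0.775 and 0.307 TPM in DIDO3ΔE16) and Pax2 (0, 0.125 and 0.135 TPM, and 0.779, 0.276 and 0.836 TPM) were above WT in all DIDO3ΔE16 libraries but were not tested because of the libraries at 0. Pax2 was also above WT in DIDO3ΔCT+HADIDO3, with 0.883, 0.772 and 1.07 TPM. Sox2, the remaining SOXB1 gene, had a log2 fold change of -0.30 (limma adjusted p 0.00454), with 460 to 485 TPM in WT and 386 to 423 TPM in DIDO3ΔE16.

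In DIDO3ΔCT+HADIDO3, 2 of 19 tested genes of this list were called higher and 3 lower, with a median of -0.06. Ncam1, a cell adhesion gene, had 4.86, 6.09 and 5.68 TPM in WT and 34.8, 37.0 and 41.6 TPM in DIDO3ΔCT+HADIDO3 (log2 fold change 2.65). Neurog1, a proneural gene, had 2.19, 3.18 and 3.31 TPM in WT and 0.251, 0.106 and 0.395 TPM in DIDO3ΔCT+HADIDO3 (-3.24). In both genes the groups did not overlap. The calls of Meis1 (0.92) and Hesx1 (-2.25) did not hold: Meis1 was lost without any of WT 1, 2-3 and 4 or DIDO3ΔCT+HADIDO3 1 or 2 (limma adjusted p 0.0623 to 0.109), and Hesx1 without any WT library or DIDO3ΔCT+HADIDO3 1 (limma adjusted p 0.0978 to 0.127). Olig2 was at 0, 0.143 and 0.0590 TPM in DIDO3ΔCT+HADIDO3 and was not tested there because of the library at 0. Hes3 was at 0 in all 9 libraries. Of 8 neuronal genes, 7 were tested, and Map2 was called lower in DIDO3ΔE16 (-0.999). None was called in DIDO3ΔCT+HADIDO3, where 5 had an unadjusted limma p under 0.05, beside 9877 of 20879 sites. The medians were -0.41 in DIDO3ΔE16 and 0.30 in DIDO3ΔCT+HADIDO3.

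Of 18 relatives of the 9 genes, 15 were tested in DIDO3ΔE16 and 3 were called, beside 15.1% of all sites. All 3 were higher: Pou3f3 (1.69), Zic1 (1.26) and Otx1 (0.95). Pou3f3 had 0.273, 0.528 and 0.327 TPM in WT and 1.48, 1.24 and 1.71 TPM in DIDO3ΔE16, groups that did not overlap. Zic1 and Otx1 were also low, at 0.161 to 3.01 TPM in WT and DIDO3ΔE16. The Otx1 call was lost without WT 1, WT 4, DIDO3ΔE16 1 or DIDO3ΔE16 2 (limma adjusted p 0.0595 to 0.0696), and that of Zic1 without WT 2-3, WT 4, DIDO3ΔE16 1 or DIDO3ΔE16 2 (limma adjusted p 0.0561 to 0.0780). In DIDO3ΔCT+HADIDO3, 14 were tested, with Fgf4 called lower and Pou3f2 and Pou3f3 called higher. Fgf4, the main FGF ligand of ESC, had 671, 689 and 708 TPM in WT and 409, 403 and 400 TPM in DIDO3ΔCT+HADIDO3 (log2 fold change -0.87), with all 3 mutant libraries below WT. Pou3f2 (1.11) stayed at or below 0.319 TPM and Pou3f3 (1.39) at or below 1.53 TPM in these 6 libraries. Their calls were lost without WT 4, DIDO3ΔCT+HADIDO3 2 or DIDO3ΔCT+HADIDO3 3, that of Pou3f2 also without WT 1 or WT 2-3 (limma adjusted p 0.0530 to 0.0806). Vim, which encodes a filament protein related to nestin, was not called in either mutant (0.47 and 0.39).

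Of 16 genes of signals that act around neural induction, 15 were tested in DIDO3ΔE16, 1 called higher and 4 lower (median -0.46), and 14 in DIDO3ΔCT+HADIDO3, 1 higher and 7 lower (median -0.87). Lefty1 and Lefty2, which encode Nodal inhibitors that Nodal signalling itself induces, were lower in both mutants. Lefty1 had 83.6, 92.6 and 84.9 TPM in WT, 18.9, 23.3 and 18.7 TPM in DIDO3ΔE16, and 18.9, 16.5 and 17.1 TPM in DIDO3ΔCT+HADIDO3 (log2 fold changes -2.16 and -2.41). Lefty2 had 205, 206 and 175 TPM in WT, 30.3, 36.6 and 32.8 TPM in DIDO3ΔE16, and 104, 98.6 and 91.7 TPM in DIDO3ΔCT+HADIDO3 (-2.62 and -1.10). Every mutant library of both genes lay below every WT library. Nodal itself was called lower in DIDO3ΔCT+HADIDO3 (-0.74) and had 0.33 in DIDO3ΔE16. The Nodal call was lost without scaling and after quantile normalization.

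Id1, Id2 and Id3 are targets of BMP signalling that hold back neural differentiation, and they differed from each other. Id3 had 61.2, 65.3 and 65.0 TPM in WT, 208, 214 and 206 TPM in DIDO3ΔE16, and 39.1, 37.4 and 36.6 TPM in DIDO3ΔCT+HADIDO3. The 3 groups did not overlap, and Id3 was called higher in DIDO3ΔE16 (1.65) and lower in DIDO3ΔCT+HADIDO3 (-0.86). Id2 had 22.9, 18.6 and 21.7 TPM in WT and 7.70, 8.89 and 9.46 TPM in DIDO3ΔE16 (-1.33), while in DIDO3ΔCT+HADIDO3 it was not called (0.42). Id1 was called in neither (-0.56 and 0.40). Bmp4, a ligand, was called higher in DIDO3ΔCT+HADIDO3 (1.44), with 3.22, 3.89 and 4 TPM in WT and 10.4, 11.6 and 10.9 TPM there. On the FGF side, Fgf4, Spry4 (-1.12) and Dusp6 (-0.89) were called lower in DIDO3ΔCT+HADIDO3, and none of these 3 was called in DIDO3ΔE16. Fgfr1 was called lower in DIDO3ΔE16 (-2.28) at a site of 4 features that read 310 TPM in DIDO3ΔCT+HADIDO3 2 and 62.6 and 64.5 TPM in the other 2 libraries of that group.

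Of 13 genes of naive pluripotency, 0 were called higher and 2 lower in DIDO3ΔE16, and 2 were higher and 3 lower in DIDO3ΔCT+HADIDO3. In DIDO3ΔE16, 6 had an unadjusted limma p under 0.05, beside 9131 of 21063 sites. The medians were 0.26 and 0.58. Dppa3 was lower in both mutants, with 15.3, 17.2 and 14.979 TPM in WT, 7.44, 7.35 and 4.78 TPM in DIDO3ΔE16, and 3.36, 3.85 and 3.70 TPM in DIDO3ΔCT+HADIDO3 (log2 fold changes -1.35 and -2.19). Tcl1, the other lower gene in DIDO3ΔE16, read 117, 3.96 and 9.39 TPM within WT, and its call was lost without WT 4 or any of the 3 DIDO3ΔE16 libraries (limma adjusted p 0.0853 to 0.118). Zfp42 (1.65) and Prdm14 (0.90) were higher and Klf4 (-0.75) and Nr0b1 (-0.74) lower in DIDO3ΔCT+HADIDO3. The call of Nr0b1 was lost without DIDO3ΔCT+HADIDO3 2 (-0.69), and the calls of Klf4, Nr0b1 and, among the formative genes, Tcf15 were lost without scaling or after quantile normalization. Nanog read 3.10 TPM in WT 4 beside 664 and 676 TPM in the other WT libraries, and Esrrb read 5.18 and 8.78 TPM in WT 1 and WT 4 beside 1155 TPM in WT 2-3, so their fold changes against WT mix libraries of unlike levels.

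Markers of the labelled cell type were abundant. The 10 ESC markers summed to 5104, 6053 and 4987 TPM in WT, 7162, 6824 and 6748 TPM in DIDO3ΔE16, and 7115, 5209 and 6757 TPM in DIDO3ΔCT+HADIDO3, and none was at 0 in all libraries. Tdgf1 was the most abundant, with 2081 to 2400 TPM. In DIDO3ΔE16 0 of the 10 were called, with 2 at an unadjusted limma p under 0.05, beside 9131 of 21063 sites. In DIDO3ΔCT+HADIDO3 1 was higher (Zfp42) and 1 lower (Lin28a, -0.84, a call lost after quantile normalization). Nanog in WT 4 and Sall4 in WT 2-3 (4.72 TPM) were far below their other libraries, as was Esrrb in WT 1, WT 4 and DIDO3ΔCT+HADIDO3 2 (9.70 TPM), which lowers the sums of those libraries. Another of the 10 markers stood the other way, with 484 TPM in WT 4 beside 168 and 180 TPM in WT 1 and WT 2-3, which raises the sum of WT 4. Nanog, Esrrb and Zfp42 also stand among the naive genes.

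Markers of feeder fibroblasts differed between the groups. The 12 markers summed to 67.6, 64.5 and 73.3 TPM in WT, 137, 137 and 141 TPM in DIDO3ΔE16, and 58.8, 62.2 and 62.8 TPM in DIDO3ΔCT+HADIDO3. Thy1, the most abundant by the mean of all 9 libraries although Col1a2 exceeded it in DIDO3ΔE16 and in WT 4, was highest in DIDO3ΔCT+HADIDO3, with 18.1 to 19.7, 29.6 to 33.9 and 52.2 to 56.1 TPM in these groups. Without Thy1 the sums were 48.2, 46.4 and 53.6 TPM in WT, 103, 107 and 108 TPM in DIDO3ΔE16, and 6.68, 6.10 and 7.83 TPM in DIDO3ΔCT+HADIDO3, so that the 3 groups did not overlap. Acta2, with 5.09, 4.59 and 5.70 TPM, made up most of this sum in DIDO3ΔCT+HADIDO3. It did not move with the rest of the list, with log2 fold changes of -0.50 in DIDO3ΔE16 (limma adjusted p 0.0499) and 0.07 in DIDO3ΔCT+HADIDO3 (limma adjusted p 0.719). In DIDO3ΔE16 8 of 10 tested markers were called higher and 0 lower, of which Postn was lost without DIDO3ΔE16 1 (limma adjusted p 0.0532) or DIDO3ΔE16 2 (limma adjusted p 0.0578). Postn and Twist2 were also lost after quantile normalization. In DIDO3ΔCT+HADIDO3 4 of 6 tested were lower and 1, Thy1, was higher. Col1a2 had 18.1, 16.7 and 20.0 TPM in WT, 36.5, 39.2 and 38.9 TPM in DIDO3ΔE16, and 0.229, 0.246 and 0.242 TPM in DIDO3ΔCT+HADIDO3. Col3a1 and Twist2 were at 0 in all 3 DIDO3ΔCT+HADIDO3 libraries, and Lum was at 0 in all libraries but DIDO3ΔCT+HADIDO3 2. Sox1 and Sox3 were highest in DIDO3ΔE16, where the sum without Thy1 was highest. In DIDO3ΔCT+HADIDO3, where that sum was lowest, Sox1 lay above every WT library and Sox3 overlapped WT. Mean TPM of Pou3f1, Zic2, Zic5 and Fgf5 ran in the order of that sum, highest in DIDO3ΔE16 and lowest in DIDO3ΔCT+HADIDO3. None of these genes was called in DIDO3ΔE16 against WT. Otx2 ran the opposite way, and the groups of Nes overlapped. The part of these markers in the results for the 9 genes was not tested.

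**Figure D4:**
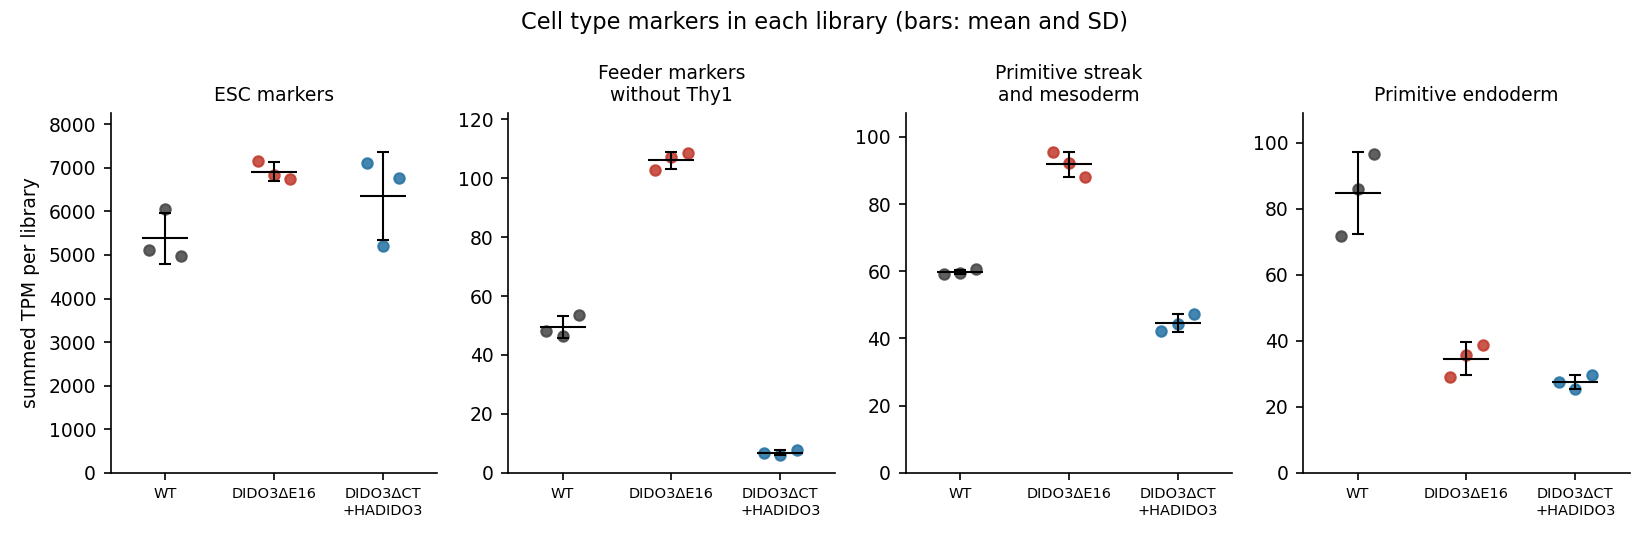
Summed TPM of 4 marker lists in each library (vertical axes, starting at 0; feeder markers without Thy1) for the 3 groups; each point is 1 library and the bars give the mean and the standard deviation. Feeder markers sum to 46.4 to 53.6 TPM in WT, 103 to 108 TPM in DIDO3ΔE16 and 6.10 to 7.83 TPM in DIDO3ΔCT+HADIDO3, and primitive endoderm markers are highest in WT.

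Markers of the primitive streak and mesoderm, 7 genes, summed to 59.3, 59.5 and 60.6 TPM in WT, 95.4, 92.3 and 88.0 TPM in DIDO3ΔE16, and 42.1, 44.3 and 47.3 TPM in DIDO3ΔCT+HADIDO3. The groups did not overlap in this sum, and none of the 7 was at 0 in all libraries. Eomes, the most abundant, had 30.4, 29.9 and 29.3 TPM in WT, 54.1, 58.1 and 60.03 TPM in DIDO3ΔE16, and 17.9, 19.8 and 21.4 TPM in DIDO3ΔCT+HADIDO3. Without Eomes the sums were 28.9, 29.5 and 31.3 TPM in WT, 41.3, 34.2 and 28.0 TPM in DIDO3ΔE16, and 24.2, 24.4 and 25.8 TPM in DIDO3ΔCT+HADIDO3, so that WT and DIDO3ΔE16 overlapped. Mixl1 (-0.90) and Foxa2 (-1.52) had negative log2 fold changes in DIDO3ΔE16 and were not called. In DIDO3ΔE16 Eomes (0.88) and T (0.96) were called higher and 0 were lower, and the T call was lost without DIDO3ΔE16 1 or 2 (limma adjusted p 0.0525 and 0.0602). In DIDO3ΔCT+HADIDO3 Eomes, Evx1 (-1.58) and Foxa2 (-2.63) were called lower. The Eomes call, close to the fold threshold at -0.702, was lost without WT 1 (-0.699) or DIDO3ΔCT+HADIDO3 1 (-0.646), without scaling and after quantile normalization, and that of Evx1 without WT 1 (limma adjusted p 0.0521).

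Markers of primitive endoderm, 6 genes, summed to 71.7, 85.9 and 96.7 TPM in WT, 29.0, 35.8 and 38.7 TPM in DIDO3ΔE16, and 27.5, 25.5 and 29.6 TPM in DIDO3ΔCT+HADIDO3. WT lay above both mutant groups, which overlapped in part. Dab2, at a site of 5 features, read 1.06 TPM in WT 1 beside 18.8 and 20.9 TPM in WT 2-3 and WT 4, which lowers the sum of WT 1. In DIDO3ΔE16 4 of the 6 were called lower, and in DIDO3ΔCT+HADIDO3 5 were, with 0 higher in either. Gata4, the most abundant, had 32.5, 31.7 and 36.4 TPM in WT, 12.0, 13.8 and 14.8 TPM in DIDO3ΔE16, and 10.7, 11.5 and 11.9 TPM in DIDO3ΔCT+HADIDO3. None of the 6 was at 0 in all libraries. The part of these marker genes in the values of the 9 genes was not tested.

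With flow cell as a covariate, each fold change against WT rests on WT 2-3 alone, so a lost call cannot be ascribed to the flow cell. Several calls of list and marker genes against WT were lost in that fit. In DIDO3ΔE16 these included Lef1, Rax, Hesx1, Otx1, Zic1, Pou3f3, Tcl1, Col3a1, Postn, Twist2 and T. In DIDO3ΔCT+HADIDO3 they included Cdh2, Grhl2, Hesx1, Meis1, Pou3f2, Pou3f3, Nodal, Klf4 and Evx1.

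The 9 genes lie on chromosomes 2, 3, 4, 5, 8, 14 and X. The median log2 fold change of the tested sites of these chromosomes was between -0.04 and 0.00 in DIDO3ΔE16 and between -0.13 (chromosome X) and -0.01 in DIDO3ΔCT+HADIDO3, beside -0.01 over all sites in each. On chromosome 14, which holds Otx2, Zic2 and Zic5, 12.9% of tested sites were called in DIDO3ΔE16 and 22.5% in DIDO3ΔCT+HADIDO3, beside 15.1% and 17.3% of all sites.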

How the data were processed

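Total RNA of mouse ESC was sequenced in 9 libraries, 3 per group, for 10 labelled samples. The deposited tables give TPM: the authors used BWA-MEM 0.7.15 (mm10), a Picard step against duplicates, and StringTie 1.3.3 on UCSC 3′ ends extended by 2 kb (43031 features, 28706 sites). Sites were named with GENCODE M21. Libraries were scaled by a mean of log2 ratios trimmed by 30% at each end, and log2(scaled TPM + 0.1) was tested with limma 3.58.1 (trend and robust, R 4.3.3), 1 fit per comparison of 6 libraries, after the code was tested on simulated data. Python 3.11.15, numpy 2.4.6, pandas 2.3.3 and matplotlib 3.10.9 were used. Bases in features came to 1.46 to 2.61 Gb per library, and 1 TPM to 0.434 to 0.775 reads per base.

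Named were the 9 genes, list genes that were called with up to 4 others per list by mean TPM, and the 2 closest sites per gene. A few list genes beyond this rule were named after their values were seen. Results of some list genes are withheld and not given. The 9 genes and the lists were chosen with earlier results of these data known. Alternatives were the pseudocount, filter, scaling, fit, unit of summing, thresholds, flow cell, replicate block and leaving out each library.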

Additional observations from a re-analysis of the deposited data

Results flagged for a closer look

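Otx2 is listed because it was called against WT in both mutants, in opposite directions, and was also called between the mutants. The difference, DIDO3ΔE16 minus DIDO3ΔCT+HADIDO3, was tested directly with limma and was -3.29 on the log2 scale (adjusted p 6.13e-05).

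Another 6 list genes met the same condition. Id3 differed by 2.49 (limma adjusted p 1.27e-05) and Eomes by 1.56 (limma adjusted p 7.59e-05). The feeder markers Col1a1 (4.58), Col1a2 (6.83), Col5a2 (6.35) and S100a4 (4.53) differed with limma adjusted p between 7.13e-06 and 0.000101. Groups of 3 libraries are too small for a search for single deviating samples.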

How the results depend on the processing

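Over 502 alternative values of 24 fold changes of the 9 genes, 486 kept their direction and whether they were called, 8 lost the call, 0 gained one and 8 changed sign. Fits with flow cell as a covariate were among these alternatives, and their fold changes against WT rest on WT 2-3 alone. The 8 sign changes were values near 0. Zic5 in DIDO3ΔE16 was -0.01 by its most abundant single feature (-0.00759) and summed over the gene (-0.0108), -0.03 with flow cell as a covariate (-0.0331), and -0.04 to 0.04 when 1 library was left out (-0.0428 to 0.0446). Sox3 in DIDO3ΔCT+HADIDO3 ran from -0.000959 (without WT 2-3) to 0.214 (without WT 4) when 1 library was left out, and was 0.35 with flow cell as a covariate. The cause was not tested.

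Altered sites in DIDO3ΔE16 numbered 2112 at an adjusted p under 0.01, a stricter threshold. At sites of 1 feature that share no base, chosen after seeing the data, 2081 were altered in DIDO3ΔE16 and 3618 between the mutants, with fewer sites tested. Quantile normalization gave 1632 of 3128 calls as higher in DIDO3ΔE16, beside 2151 of 3191.

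Replicate numbers did not pair the libraries: same-number correlations of deviations across sites lay between 0.00389 and 0.0372. Against WT, a replicate block leaves WT 4, DIDO3ΔE16 3 and DIDO3ΔCT+HADIDO3 3 without a partner, so little is left to estimate spread from. With that block, Zic5 in DIDO3ΔE16 was -0.000466, and limma called 0 sites and 0 of the 9 genes against WT in either mutant, with 6197 and 6915 sites at an unadjusted p under 0.05. The log2 fold changes stayed close (Otx2 -2.12, Sox1 1.94 and Sox3 1.71 in DIDO3ΔE16), and the adjusted p of the 6 lost calls lay between 0.0737 and 0.0867. Between the mutants, 6 of the 9 genes stayed called. Of the 8 lost calls, 6 came from the block, 1 from Otx2 in DIDO3ΔCT+HADIDO3 by a single feature (0.50), where DIDO3ΔCT+HADIDO3 3 was split over 4 features, and 1 from Fgf5 between the mutants with 1 added (0.49).

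Coverage of Fgf5 went down to 0.0437 reads per base.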

Other observations

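Sites within 1 Mb of each of the 9 genes were looked at after their values were seen. Around Zic2, 14 tested sites had a median log2 fold change of -0.62 in DIDO3ΔCT+HADIDO3, with 6 called lower and 0 higher, and -0.02 in DIDO3ΔE16, with 1 called higher. Around Zic5, 16 tested sites had medians of -0.61, with 7 called lower and 2 higher, and -0.02, and this window overlaps that of Zic2. Each window also counts the other gene, Zic2 called lower (-1.38) and Zic5 not called (-0.55) in DIDO3ΔCT+HADIDO3. Over all tested sites 7.24% were called lower and 10.1% higher in DIDO3ΔCT+HADIDO3, and 10.2% higher and 4.94% lower in DIDO3ΔE16. In DIDO3ΔCT+HADIDO3 the medians were also negative around Fgf5 (-0.79 over 5 sites, 3 called lower) and Sox3 (-0.82 over 5 sites, 1 called lower). In DIDO3ΔE16 they were 0.64 around Fgf5, with 2 of 5 called higher, and -0.13 around Sox3, with 0 of 5 called. Around Sox1, 37 tested sites had a median of 0.08 in DIDO3ΔE16, with 1 called higher and 2 lower, and 36 had -0.04 in DIDO3ΔCT+HADIDO3, with 1 higher and 4 lower. Around Otx2, 14 tested sites had medians of -0.04 in DIDO3ΔE16, with 2 called higher and 0 lower, and -0.21 in DIDO3ΔCT+HADIDO3, with 0 higher and 2 lower. For Pou3f1, 28 tested sites had medians of -0.04 in DIDO3ΔE16 (1 called higher, 1 lower) and -0.05 in DIDO3ΔCT+HADIDO3 (0 called). The 72 tested sites near Nes had -0.01 in DIDO3ΔE16 (8 higher, 6 lower), and 69 had -0.16 in DIDO3ΔCT+HADIDO3 (6 higher, 10 lower). Near Pax6, 12 tested sites had 0.02 in DIDO3ΔE16 (0 called) and 0.09 in DIDO3ΔCT+HADIDO3 (2 lower).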
